A study of Mus musculus with 24 samples.

Results

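Of the 12 small RNA libraries of the series, 2 held almost none of miR-122-5p, the dominant miRNA of hepatocytes, and these 2 libraries are described here against the other 10. They are the libraries labelled control 2 and HFD plus HQHF 3, and they were chosen by a measured value, a level of miR-122-5p under 1000 CPM (counts scaled to a library total of 1000000). The level was 316 CPM in control 2, with 134 CPM in HFD plus HQHF 3, against 333065 to 548311 CPM in the others, so no library lay near the limit. All differences between the 2 libraries and the 10 are therefore given as descriptions, with no test, and none of them is read as an effect of diet or formula.

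The study fed male wild-type C57BL/6 mice a normal diet (control), a high-fat diet (HFD), or a high-fat diet with the Huatanqushihuoxue Formula (HFD plus HQHF, titled TM in the labels), and each of the 3 groups has 4 small RNA and 4 long RNA libraries. High-fat feeding ran for 12 weeks before the formula was given by gavage as a treatment of diet-induced fatty liver disease. No age of the mice is given in the labels, and they also do not say which of the study's doses the formula libraries received. Every library is labelled liver. The 10 other libraries are control 1, 3 and 4, HFD 1 to 4, and HFD plus HQHF 1, 2 and 4. Small RNA totals ran from 8139111 to 12813806 counts, with 11453996 in control 2 and 10052687 in HFD plus HQHF 3, and long RNA totals from 33380925 to 46454404.

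miRNAs are short RNAs cut from hairpin precursors, and each hairpin can give a 5p and a 3p arm. Bases 2 to 8 of the mature miRNA, the seed, pair with target messenger RNAs, so miRNAs that share a seed form a family. Many miRNAs are strongly biased by cell type: miR-122 and the miR-192/194 pair are abundant in hepatocytes, miR-126a in endothelial cells, miR-143 and miR-145a in smooth muscle, and miR-193b with miR-365 in brown fat. Others follow the gene that hosts them or the body position of the cell, such as miR-10 and miR-196, which lie in the HOX gene clusters.

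Mature sequences of the miRNAs on which the results turn are shown 5′ to 3′, with the seed in capitals, so that families and near-identical members can be seen. They come from RefSeq (GRCm38.p6), which matched 1015 of the 1184 entries with a mouse prefix. The first 5 stood above the 10 in both libraries, and the next 7 stood below.
miR-708-5p: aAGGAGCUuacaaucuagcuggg
miR-708-3p: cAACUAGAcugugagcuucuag
miR-365-3p: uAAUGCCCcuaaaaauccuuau
miR-204-5p: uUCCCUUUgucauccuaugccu
miR-193a-5p: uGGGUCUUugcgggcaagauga
miR-192-5p: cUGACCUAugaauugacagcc
miR-194-5p: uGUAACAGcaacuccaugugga
miR-802-5p: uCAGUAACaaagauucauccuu
miR-802-3p: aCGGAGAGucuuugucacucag
miR-31-5p: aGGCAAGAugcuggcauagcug
miR-101b-3p: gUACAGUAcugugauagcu
miR-137-3p: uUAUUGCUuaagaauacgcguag

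The next sequences set the 2 libraries apart or were among their most abundant miRNAs. The first 6 were higher in control 2 than in HFD plus HQHF 3, the 4 after them were lower in control 2, and the last 4 were abundant in both or differ from another printed miRNA at a single base.
miR-196a-5p: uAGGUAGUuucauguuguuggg
miR-196b-5p: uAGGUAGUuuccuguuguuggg
miR-200b-3p: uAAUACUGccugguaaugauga
miR-429-3p: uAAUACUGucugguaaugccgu
miR-224-5p: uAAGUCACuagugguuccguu
miR-10b-5p: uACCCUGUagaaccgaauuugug
miR-182-5p: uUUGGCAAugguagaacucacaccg
miR-96-5p: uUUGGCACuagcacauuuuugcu
miR-183-5p: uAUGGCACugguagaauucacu
miR-455-3p: gCAGUCCAcgggcauauacac
miR-126a-3p: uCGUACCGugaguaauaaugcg
miR-10a-5p: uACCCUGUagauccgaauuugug
let-7a-5p: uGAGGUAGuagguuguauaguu
let-7c-5p: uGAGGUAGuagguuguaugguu
Counted from 1 at the 5′ end, miR-10a-5p and miR-10b-5p differ by U12A, miR-196a-5p and miR-196b-5p by A12C, and let-7a-5p and let-7c-5p by A19G. A read that ends early or carries an error can be assigned to either member of such a pair, so their split is uncertain, while their shared seed is not.

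The long RNA libraries of the same group and number went against the liver label in both cases. Albumin (Alb), the main plasma protein made by hepatocytes, was at 46.4 CPM in control 2 and at 0.74 CPM in HFD plus HQHF 3, against 35054 to 92208 CPM in the other 10. Adiponectin (Adipoq), a hormone secreted by fat cells, stood at 4543 and 1254 CPM, against 0 to 41.2 CPM, and the lipid droplet protein gene Plin1 was at 624 and 1273 CPM, against 0 to 32.0 CPM. The highest of the 10 for both genes was HFD 3. Ucp1, which encodes the uncoupling protein of brown fat, was at 0 CPM in control 2 and at 4036 CPM in HFD plus HQHF 3, and leptin (Lep) was at 160 and 6.45 CPM. Of the hepatocyte genes, Cyp2e1 alone was not low in control 2, at 8456 CPM, inside the range of the 10 (2287 to 12268 CPM), and it was at 397 CPM in HFD plus HQHF 3. In bulk RNA, fewer cells of a type and less RNA per cell cannot be told apart.

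A second library limits every comparison with the 10. HFD 3 kept miR-122-5p at 367153 CPM, but its long RNA held Adipoq at 41.2 CPM, Ucp1 at 10.7 CPM and the catecholamine synthesis genes Th and Dbh at 53.9 and 76.1 CPM. Th and Dbh were at or under 0.0265 CPM in both of the 2 libraries. Counts are therefore given with and without HFD 3.

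The small RNA of both libraries was led by miR-126a-3p, which is processed from an intron of the endothelial gene Egfl7. It made up 10.5% of counts in control 2 (95% Wilson interval 10.43 to 10.47%) and 22.9% in HFD plus HQHF 3 (22.83 to 22.88%), against 2.40 to 5.98% in the 10, where miR-122-5p led with 33.3 to 54.8%. miR-122-5p itself made up 0.0316% (0.0305 to 0.0326%) and 0.0134% (0.0127 to 0.0141%). Such intervals cover counting error only, since reads amplified by PCR are not independent molecules, and for the shares of lists and seed families they reach at most 0.0288 percentage points to either side. The 10 most abundant miRNAs held 59.4 and 61.7% of counts, against 64.5 to 80.0%, but the choice on miR-122-5p sets that order. Of the counts outside miR-122, the 10 most abundant held 59.41 and 61.68%, against 49.6 to 59.2%. At least 10 CPM was reached by 280 and 276 miRNAs, against 186 to 280, with HFD 3 highest.

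Across 267 miRNAs, the Pearson correlation of log2(CPM + 1) was 0.92 between control 2 and HFD plus HQHF 3. Control 2 correlated with the 10 at 0.74 to 0.83 and HFD plus HQHF 3 at 0.80 to 0.86, and in each case the highest value was that with HFD 3. The 10 correlated with each other at 0.90 to 0.996, with a median of 0.98. These correlations are across miRNAs, which are not independent replicates, and they carry no p-value.

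**Figure D1:**
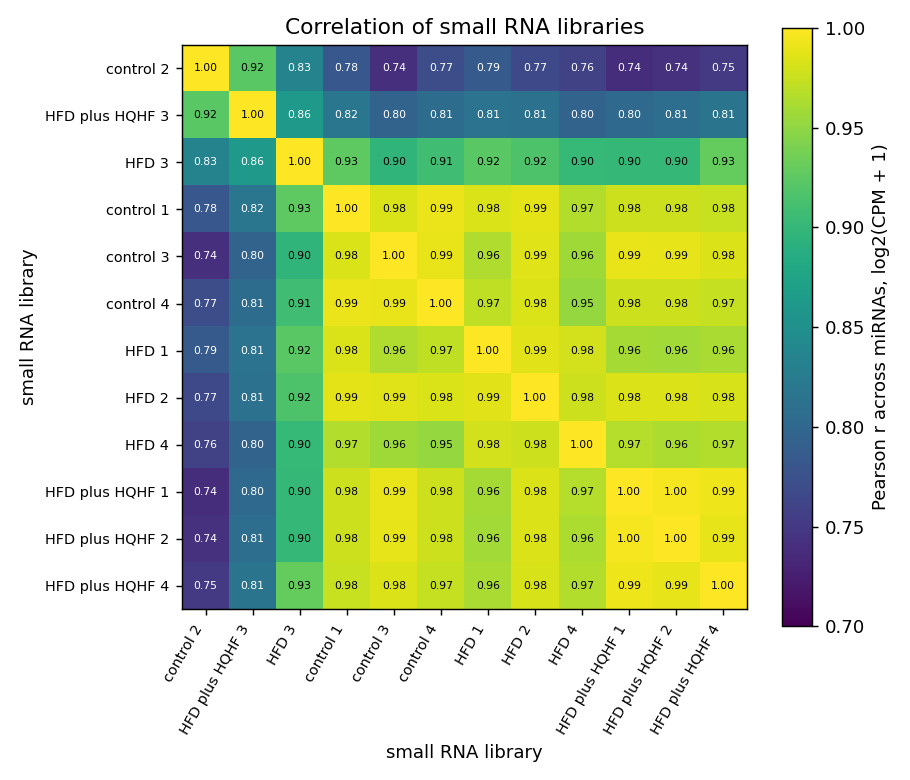
Pearson correlation across 267 miRNAs, on log2(CPM + 1), between every pair of the 12 small RNA libraries, with the value written in each cell and coloured from 0.7 to 1. The miRNAs were chosen by their levels in control 2 and HFD plus HQHF 3 or in the others. The first pair of rows, control 2 and HFD plus HQHF 3, share 0.92 with each other and lie at 0.74 to 0.86 with all others.

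The shares of a library add up to its total, and miR-122-5p takes 33.3 to 54.8% of that total in the 10, so the scaling matters for every miRNA that is higher in the 2 libraries. On CPM of the total, the median tested miRNA stood 1.53 log2 units higher in the 2 libraries than in the 10. That median shift was 0.60 when miR-122-5p was left out of the total, 0.30 with TMM factors and 0.29 with RLE size factors. The tested miRNAs include ones that reached 10 CPM in both of the 2 libraries but not in all of the 10. The part of that filter in the shift was not tested. With TMM factors miR-126a-3p in control 2 fell inside the range of the 10, at 5.21% against 3.62 to 5.65%. The same held with RLE factors, at 4.70% against 3.40 to 5.91%. HFD plus HQHF 3 stayed above the 10 with both, at 11.3 and 12.15%. Levels below are CPM of the total. Of the miRNAs called against the 10 on that scale, those that lose the call under another scaling are named. For the 2 libraries against each other, only counts are given under other scalings.

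Standing above the 10 by at least 4-fold, the lower of the 2 libraries over the highest of the 10, were 6 of 268 miRNAs tested (2.24%). All 6 are described here. Without HFD 3 among the liver libraries the count was 23 of 268 (8.58%), so 1 library decided most of what passed.

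Both arms of miR-708, a miRNA hosted by the teneurin gene Tenm4, stood furthest above the 10. miR-708-5p was at 1453 CPM in control 2 and at 445 CPM in HFD plus HQHF 3, against 0 to 21.1 CPM with a median of 1.42. miR-708-3p was at 234 and 160 CPM, against 0 to 4.63 CPM with a median of 0.30. HFD 3 was the highest of the 10 for both arms, and the gap to it was 21.1-fold for the 5p arm and 34.6-fold for the 3p arm. Under the other 3 scalings the gaps stayed at 13.3- to 13.8-fold and 21.8- to 22.7-fold.

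miR-365-3p, a partner of miR-193b in brown fat cells, was nearly equal in the 2 libraries, at 3728 and 3729 CPM, against 184 to 397 CPM. The gap was 9.40-fold, and 4.50- to 5.95-fold under the other scalings. miR-365-3p was the one miRNA called higher in both that belongs to the list of miRNAs linked to brown fat, although Ucp1 was at 0 CPM in the long RNA of control 2.

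miR-150-5p, abundant in mature lymphocytes, was at 3608 and 3885 CPM, against 74.3 to 532 CPM with a median of 161. Its gap was 6.79-fold, and 4.12- to 4.53-fold under the other scalings. In long RNA, neither library stood above the 10 for 2 lymphocyte genes. The B cell receptor gene Cd79a was at 0.120 and 1.04 CPM, against 0.632 to 2.69 CPM, and the T cell receptor complex gene Cd3e at 0.389 and 0.849 CPM, against 0.387 to 4.34 CPM.

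miR-204-5p, hosted by the ion channel gene Trpm3, was at 123 and 124 CPM, against 0 to 22.0 CPM with a median of 0.26. The 22.0 CPM was HFD 3, and the gap of 5.60-fold became 41.6-fold without that library. Its host stood with it, since Trpm3 was at 2.22 and 2.95 CPM in long RNA against at most 0.359 CPM. miR-193a-5p was at 184 and 122.1 CPM, against 10.3 to 26.7 CPM, a gap of 4.58-fold. Both lost the 4-fold gap under the other scalings, where it was 3.10- to 3.55-fold for miR-204-5p and 2.03- to 2.74-fold for miR-193a-5p, so 4 of the 6 miRNAs held under all scalings run.

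**Figure D2:**
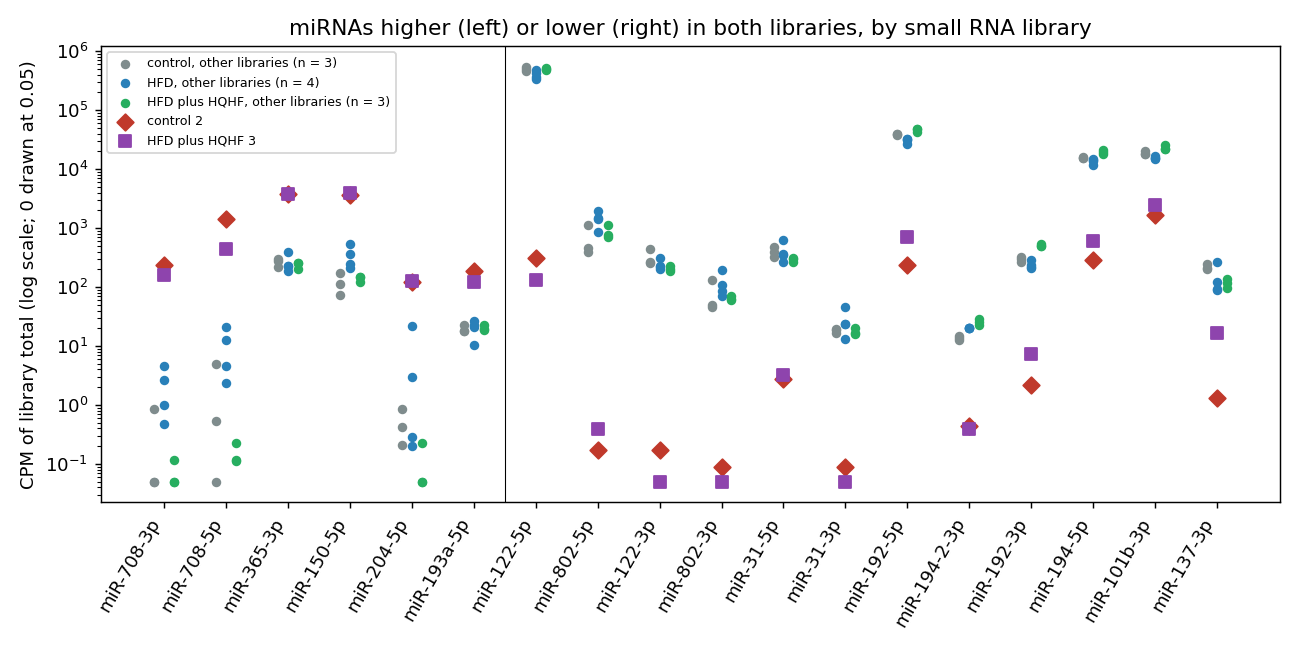
CPM of library total (log scale, 0 drawn at 0.05) of the 6 miRNAs that stood above and the 12 that stood below the other libraries in both control 2 and HFD plus HQHF 3, with 1 point per small RNA library. For miR-708-5p, 1453 and 445 CPM lie above a highest value of 21.1 CPM among the 10, and for miR-192-5p, 234 and 694 CPM lie below a lowest value of 26640 CPM.

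Leaving out HFD 3 added 17 miRNAs, among them miR-10b-5p and miR-10b-3p, which lie among the HOXD genes. miR-10b-5p was at 13313 and 2300 CPM, against a median of 22.9 CPM, 1001 CPM in HFD 3 and at most 91.9 CPM in the others. Another 7 of the 17 belong to the list of the imprinted Dlk1-Dio3 cluster, which is active on the maternal chromosome. Of these, miR-127-3p was at 611 and 422 CPM, against 1482 CPM in HFD 3 and at most 44.5 CPM elsewhere. miR-382-5p was at 171 and 113 CPM, against 399 CPM in HFD 3 and at most 17.9 CPM elsewhere. The 37 listed cluster members found in the table summed to 2266 CPM in control 2 and to 1511 CPM in HFD plus HQHF 3, against 4815 CPM in HFD 3 and 46.5 to 339 CPM in the others. The 2 libraries and HFD 3 thus shared a level of this cluster that the remaining 9 did not reach.

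Standing below the 10 by at least 4-fold were 12 of 268 miRNAs (4.48%), and all 12 passed under every scaling run. Since the libraries were chosen on miR-122-5p, that miRNA and its other arm are no finding. miR-122-3p had 2 counts in control 2 and 0 in HFD plus HQHF 3, against 191 to 442 CPM.

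miR-802, a liver-enriched miRNA, was as good as missing. Its 5p arm had 2 counts in control 2 and 4 in HFD plus HQHF 3, against 391 to 1935 CPM, and its 3p arm had 1 count and 0 counts, against 46.6 to 198 CPM. For the 5p arm, the lowest of the 10 was 982-fold above the higher of the 2 (95% counting interval 383 to 3607). For the 3p arm the ratio was 534 (95.3 to 21135), which rests on a single count.

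miR-192 and miR-194 are made together from a shared transcript that is active in liver and gut. miR-192-5p was at 234 and 694 CPM, against 26640 to 48447 CPM, a gap of 38.4-fold. miR-194-5p was at 288 and 593 CPM, against 11910 to 20785 CPM, a gap of 20.1-fold. Their other arms stood below as well: miR-192-3p was at 2.18 and 7.26 CPM against 213 to 531 CPM, and miR-194-2-3p at 0.437 and 0.398 CPM against 12.9 to 28.5 CPM. In all 4, control 2 and HFD plus HQHF 3 lay far below the whole range of liver libraries, and they did not reach 0. For miR-192-5p, control 2 stood below HFD plus HQHF 3, the reverse of the order of miR-122-5p.

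miR-31, known from epithelia, was at 2.71 and 3.28 CPM for the 5p arm, against 264 to 636 CPM, a gap of 80.4-fold. Its 3p arm had 1 count and 0 counts, against 13.0 to 45.2 CPM. miR-101b-3p was at 1668 and 2442 CPM, against 14933 to 25895 CPM, a gap of 6.11-fold. The related miR-101a-3p did not pass, at 4941 and 9785 CPM, against 8918 to 13728 CPM. miR-137-3p, best known from neurons, was at 1.31 and 16.7 CPM, against 88.7 to 262 CPM, a gap of 5.30-fold. Leaving out both arms of miR-122, 8 of the 10 other hepatocyte-linked miRNAs listed were tested and 6 stood below by 4-fold, beside 10 of all 266 tested (3.76%). Such counts do not rest on separate loci, since 8 of those 10 called miRNAs lay within 10 kb of another of them. A miRNA was tested at 10 CPM or more in both of the 2 libraries or in all of the 10. Some members, such as both arms of miR-802, thus entered only through the 10, where they are high. Nothing is therefore read from the 6 of 8 beside the share of all tested.

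A list of 12 miRNAs from the X chromosome that are mainly expressed in testis was at 0 counts in both libraries. A count of 0 allows up to 0.262 CPM for a member in control 2 and up to 0.298 CPM in HFD plus HQHF 3, for counting error only. The same list summed to 2.92 to 10.7 CPM in the 10, of which miR-741-3p gave 2.11 to 7.67 CPM, so it was detected in every one of the 10.

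Lists of miRNAs linked to cell types and gene clusters were summed in each library. The hepatocyte list without miR-122, on which the libraries were chosen, made up 1.22% of counts in control 2 and 1.77% in HFD plus HQHF 3, against 8.33 to 12.3%, and it stood below the 10 under every scaling. The endothelial list made up 15.7 and 31.9%, against 4.03 to 9.10%. It also stood above when miR-122-5p was left out of the total, but with TMM or RLE factors control 2 fell inside the range of the 10. No member of that list passed the 4-fold gap, while 8 of its 8 members in control 2 and 6 in HFD plus HQHF 3 were above all 10 on CPM of the total.

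The HOX cluster list made up 2.43 and 0.660%, against 0.0667 to 0.453% with HFD 3 highest. Under the other scalings HFD plus HQHF 3 fell just inside the range, below HFD 3. The list of the miR-99, let-7 and miR-125 clusters made up 20.5 and 8.23%, against 2.06 to 5.31%, again with HFD 3 highest, and HFD plus HQHF 3 fell below HFD 3 when miR-122-5p was left out of the total or with TMM factors. Control 2 stood above all 10 for both lists under every scaling.

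The adipocyte-linked list, chosen from miRNAs studied in white fat cells, had a sum that did not separate the libraries under every scaling, and 1 of its 11 tested members, miR-150-5p, was called higher in both. The list made up 5.91 and 6.35%, against 2.72 to 4.59%, but the ranges overlapped when miR-122-5p was left out of the total or with RLE factors, and with TMM factors the 2 libraries were below the 10. miR-103-3p, an abundant member encoded in the pantothenate kinase genes, was at 17399 and 5403 CPM, against 1344 to 2605 CPM. miR-27b-3p was at 3561 and 8343 CPM, against 3466 to 7729 CPM. The brown fat-linked list made up 1.01 and 2.59%, against 0.338 to 0.463%, and with TMM or RLE factors control 2 fell inside the range of the 10.

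Lists for other cell types that a dissected tissue piece could hold also differed. The muscle list summed to 1218 and 658 CPM, against 14.0 to 529 CPM with HFD 1 highest, and miR-1a-3p, the main miRNA of striated muscle, was at 944 and 578 CPM against 11.5 to 467 CPM. In long RNA the 7 skeletal muscle genes found summed to 23.7 CPM in control 2, above the 0.266 to 2.38 CPM of the 10, and to 2.04 CPM in HFD plus HQHF 3. The actin gene Acta1 gave 22.3 CPM of the sum in control 2, while the muscle creatine kinase gene Ckm was at 0 and 0.0265 CPM. The stromal and smooth muscle list made up 5.64 and 4.22%, against 0.726 to 3.34%, and miR-145a-5p was at 6033 and 4615 CPM against 358 to 1722 CPM. The red blood cell list summed to 2193 and 1117 CPM, against 403 to 691 CPM. The immune cell list overlapped the 10, at 14073 and 12848 CPM against 4315 to 16481 CPM. Under each of the other scalings, HFD plus HQHF 3 fell inside the range of the 10 for the muscle, stromal and red blood cell lists. Control 2 stayed above the 10 under all of them for the muscle and red blood cell lists. For the stromal list it did so only when miR-122-5p was left out of the total. The part of these cell types in the miRNA differences was not tested.

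**Figure D3:**
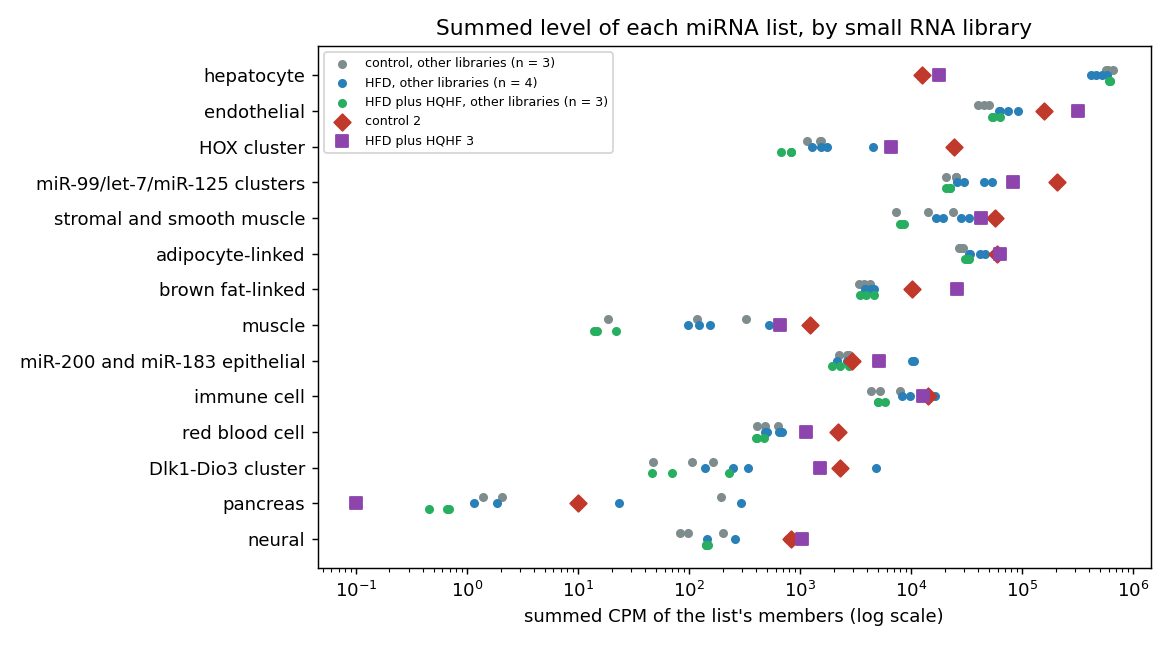
Summed CPM (log scale) of the members of 14 miRNA lists, with 1 point per small RNA library and the 2 libraries drawn as a diamond and a square. The HOX cluster list lies at 24273 and 6600 CPM in them against at most 4533 CPM, in HFD 3, among the 10. The hepatocyte list here includes miR-122-5p, on which the libraries were chosen.

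Grouped by seed, the let-7 family (GAGGUAG) made up 31.2% of counts in control 2 and 18.7% in HFD plus HQHF 3, against 8.15 to 13.0%. Under the other scalings HFD plus HQHF 3 did not stand above the 10. With RLE factors control 2 also fell inside their range, at 14.0% against a highest value of 14.5% in control 3. The miR-125 family (CCCUGAG) made up 8.93 and 3.85%, against 0.507 to 2.28%, and of the 8 families checked it was the one that stood above the 10 under all scalings run. miR-21a-5p (AGCUUAU), linked to cell growth and abundant in liver, made up 2.91 and 0.977%, against 2.72 to 6.77%. It overlapped the 10 on CPM of the total and stood below them under the other 3 scalings.

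Next, the 2 libraries were set against each other. Of 308 miRNAs at 10 CPM or more in either, 27 were at least 4-fold higher in control 2 (8.77%) and 26 were at least 4-fold higher in HFD plus HQHF 3 (8.44%), of which 1 entry has no mouse miRNA name. Neither library has a replicate of its kind, so the difference has no replicate check. A miRNA under 10 CPM in 1 of them entered through the other, where it is higher, and the list counts below carry that limit. Among the 12 pairs of other libraries within a group, 1 to 71 miRNAs differed by 4-fold with a median of 16.5, so the 53 between the 2 libraries lie inside that range. The 3 highest pairs, at 63, 63 and 71, all contain HFD 3, and the other 9 pairs had 1 to 23. The median miRNA was 0.26 log2 units lower in HFD plus HQHF 3. With TMM factors 27 and 19 miRNAs passed, and with RLE size factors 19 and 23. Of these, 26 and 19 with TMM, and 19 and 19 with RLE, also passed on CPM of the total. The single calls that changed are not named.

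**Figure D4:**
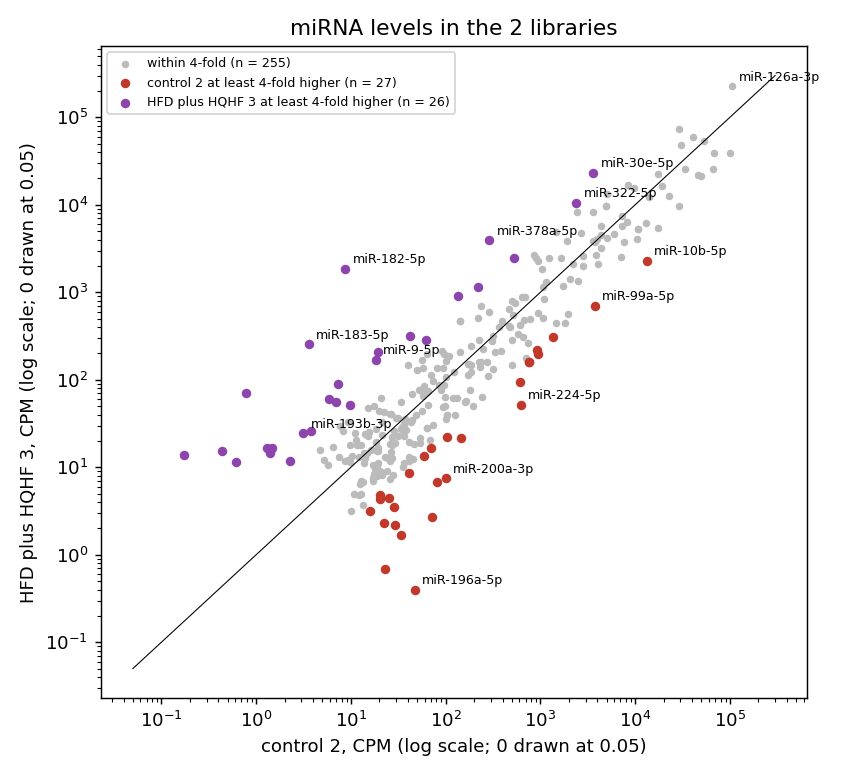
CPM (log scales, 0 drawn at 0.05) of the 308 tested miRNAs in control 2 and in HFD plus HQHF 3, with the line of equal levels and the 27 and 26 miRNAs past 4-fold in colour. miR-182-5p (8.73 and 1860 CPM) and miR-196a-5p (47.2 and 0.398 CPM) lie furthest from the line.

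miRNAs of the HOX clusters were among those higher in control 2. miR-196a-5p was at 47.2 CPM in control 2 and at 0.398 CPM in HFD plus HQHF 3, a 119-fold difference, and its only other high value was 73.2 CPM in HFD 3. miR-196b-5p, which shares its seed, was at 28.4 and 3.48 CPM, against 0 to 4.43 CPM in the 10. miR-10b-5p was 5.79-fold higher in control 2, and miR-10a-5p was at 10506 and 4071 CPM. The median member of the HOX list was 1.53 log2 units lower in HFD plus HQHF 3, beside 0.26 lower for all tested.

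The miR-99, let-7 and miR-125 clusters also leaned to control 2. miR-99a-5p was at 3733 and 703 CPM, miR-100-5p at 954 and 199 CPM, and miR-125b-5p at 66604 and 25707 CPM. The list's median was 1.38 log2 units lower in HFD plus HQHF 3, and 3 of its 9 members passed 4-fold, beside 8.77% of all miRNAs tested. miR-181a-5p, at 611 and 93.5 CPM, and miR-181b-5p, at 144 and 21.7 CPM, share a seed and passed together. miR-221-3p, a miRNA of endothelial and stromal cells, stood at 1374 and 310 CPM, against 335 to 590 CPM in the 10, so control 2 was above and HFD plus HQHF 3 below all of them on CPM of the total.

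Of the 5 members of the epithelial miR-200 family, 3 were at least 4-fold higher in control 2, at levels near or below the lowest of the 10. miR-200a-3p was at 99.9 and 7.56 CPM, against 249 to 5727 CPM in the 10. miR-200b-3p was at 72.0 and 2.69 CPM, against 71.0 to 1539 CPM, and miR-429-3p, with the same seed, was at 29.5 and 2.19 CPM, against 38.5 to 902 CPM. The others did not pass: miR-141-3p was at 4.28 and 5.77 CPM, against 22.9 to 1264 CPM, and miR-200c-3p at 8.03 and 1.79 CPM, against 4.12 to 289 CPM. Genes of the mesothelium, the epithelium that covers abdominal fat, differed in long RNA in the same direction: Upk3b was at 75.4 and 0 CPM, Msln at 57.6 and 0 CPM, and the 5 listed genes summed to 279 and 6.93 CPM, against 0.0945 to 4.93 CPM. Their part in the miRNA difference was not tested.

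Higher in HFD plus HQHF 3 was the miR-183 cluster, which is known from sensory organs and encodes 3 miRNAs side by side. miR-182-5p was at 8.73 CPM in control 2 and at 1860 CPM in HFD plus HQHF 3, a 213-fold difference, against 53.7 to 422 CPM in the 10. miR-96-5p was at 0.786 and 71.0 CPM, against 7.05 to 76.1 CPM, and miR-183-5p at 3.58 and 256 CPM, against 12.4 to 100 CPM. Control 2 was below all 10 for each of the 3, and HFD plus HQHF 3 was above all 10 for miR-182-5p and miR-183-5p.

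Of the miRNAs linked to brown fat, 6 of 12 passed 4-fold toward HFD plus HQHF 3, beside 8.44% of all tested, and 0 toward control 2, and 6 of 12 also passed with TMM factors. These counts do not rest on separate hairpins: both arms of miR-193b and both arms of miR-455 were among the miRNAs that passed. A miRNA needed 10 CPM in only 1 of the 2 libraries, and miR-193b-3p and miR-455-3p reached it only in HFD plus HQHF 3. Nothing is therefore read from the 6 of 12 beside the share of all tested. The list's median was 2.42 log2 units higher in HFD plus HQHF 3. miR-378a-5p was at 289 and 3914 CPM, against 84.7 to 209 CPM in the 10, and its 3p arm at 2410 and 8327 CPM, against 309 to 1002 CPM. miR-193b-3p was at 3.14 and 24.4 CPM, against at most 0.593 CPM in the 10, and miR-455-3p at 5.85 and 59.6 CPM, against 12.5 to 63.1 CPM. miR-365-3p, another member of the list, did not differ, at 3728 and 3729 CPM. In long RNA the brown fat genes Cidea and Cox8b were at 1.68 and 5.003 CPM in control 2 and at 2104 and 815 CPM in HFD plus HQHF 3.

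Further miRNAs higher in HFD plus HQHF 3 were led in abundance by miR-30e-5p, at 3626 and 23303 CPM against a narrow range of 7349 to 8614 CPM in the 10. Control 2 was below and HFD plus HQHF 3 above that range on CPM of the total. miR-322-5p, a miR-15/16 family member, was at 2396 and 10521 CPM, against 331 to 1973 CPM. miR-9-5p, best known from neural cells, reached 18.3 and 169 CPM, against 1.97 to 57.1 CPM. miR-1941-3p was at 0.437 and 15.4 CPM, against at most 0.503 CPM in the 10.

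Many miRNAs lie inside protein-coding genes, so their hosts or HOX neighbours were read from the long RNA libraries for 33 of 35 listed pairs. With 1 CPM added to each level, 17 miRNAs (51.5%) and 12 hosts (36.4%) differed by at least 2-fold between the 2 libraries. In 6 pairs both differed, near the 6.18 pairs that those shares give if miRNA and host are unrelated, so nothing is read from that number. In each of the 6 pairs both differed in the same direction. miR-378a lies in Ppargc1b, a coactivator of mitochondrial genes, which was at 7.85 CPM in control 2 and at 197 CPM in HFD plus HQHF 3, against 6.89 to 43.3 CPM in the 10. miR-455-3p lies in the collagen gene Col27a1, which was at 1.498 and 26.8 CPM. miR-30e lies in Nfyc, at 8.39 and 32.9 CPM, and miR-33 in the sterol regulator gene Srebf2, at 11.5 and 25.6 CPM.

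On the other side, miR-335-5p, at 1803 and 451 CPM, lies in the imprinted gene Mest, which was at 47.8 and 5.07 CPM. miR-103-3p and its host Pank3, at 367 and 147 CPM, were both higher in control 2. Its close relative miR-107-3p, in Pank1, was at 1226 and 2436 CPM, a difference just under 2-fold on that scale, while Pank1 was at 4.52 and 367 CPM. Egfl7, the host of miR-126a, was at 88.8 and 90.1 CPM, against 7.93 to 31.2 CPM in the 10, although miR-126a-3p was at 104506 and 228558 CPM. Pde4d differed without its miRNA, at 34.3 and 209 CPM, while miR-582-5p was at 0.524 and 0.199 CPM. Genes and miRNAs come from separate libraries, and genes are compared here only with themselves.

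**Figure D5:**
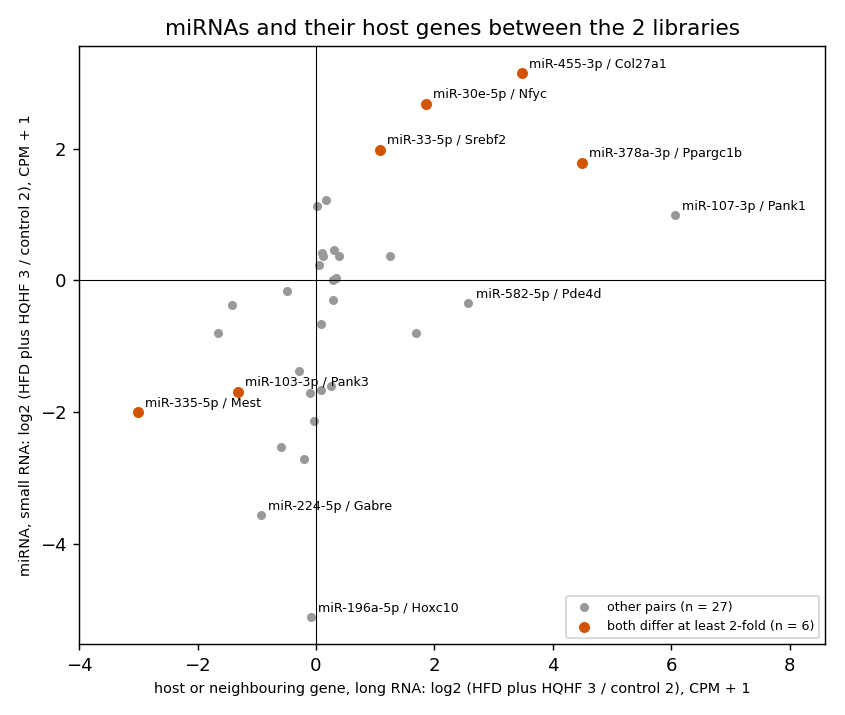
Log2 ratio of HFD plus HQHF 3 over control 2, with 1 CPM added, for 33 miRNAs (vertical axis, small RNA) and their host or neighbouring genes (horizontal axis, long RNA). The 6 pairs in which both differ by at least 2-fold, in orange, lie to the upper right or lower left, as miR-378a-3p with Ppargc1b and miR-335-5p with Mest do.

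The balance of the 2 arms of a hairpin was compared for 75 hairpins with at least 10 counts of each arm in every library. In 1 of 75 (1.33%) both libraries were beyond the range of the 10 by at least 1 log2 unit. This was miR-340, whose log2 ratio of 3p over 5p was -4.46 in control 2 and -4.38 in HFD plus HQHF 3, against -7.15 to -5.53. With at least 50 counts an arm it was not tested and none passed, since a library had 44 counts of its 3p arm. At any distance beyond the range, 19 of 75 passed, 11 toward 3p and 8 toward 5p, and 11 of the 19 had an arm with under 100 counts in a library.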

How the data were processed

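Small RNA (12 libraries) and long RNA (12 libraries) were deposited as gene-level tables, and both hold whole-number counts that the authors did not normalise, as the values show. Per the submitters' processing notes, HISAT2, RSEM and the GRCm39 build were used, with no role or order given, and how small RNA reads were assigned to miRNAs is not given in the sources used here. Per the labels' protocols, RNA was extracted with TRIzol, long RNA libraries were stranded and depleted of ribosomal RNA, and adapters were ligated to small RNA before amplification.

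Counts were divided by the library total and given as CPM. A miRNA was called higher in both libraries where the lower of the 2 was at least 4-fold above the highest of the 10, with at least 10 CPM in both, and lower in both by the mirrored rule with at least 10 CPM in all 10. Libraries under 3 counts were set to 3 in a ratio, except where a counting interval is given. Between the 2 libraries the rule was 4-fold with at least 10 CPM on the higher side. The rules were tested on simulated data, but the settings and outcome of that test are not given here. Nothing about the calls in these libraries is therefore read from that test. TMM and RLE factors came from edgeR 4.0.16 (R 4.3.3), and the rest from Python 3.11.15 with pandas 2.3.3, numpy 2.4.6 and scipy 1.17.1.

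No test between groups was made, since the libraries were selected on a measured value and come from different groups. Values without miR-122 were an alternative chosen after seeing the data. The 2 members, the lists and the rules were chosen with earlier results of these data known. The naming rule took the 10 miRNAs with the largest gap in each direction. From the 2 libraries it took the 8 with the largest fold each way and the 8 most abundant in each. It also took the 4 highest of each list, 5 markers and up to 6 arm ratios. Not all of these are described above, and miR-205-5p, miR-384-5p, let-7f-5p and miR-16-5p are among those left out. Others named in the text, such as miR-137-3p against the 10, miR-193b-3p, miR-30e-5p, miR-322-5p, the miR-99a, miR-100 and miR-181 members, miR-21a-5p, the lymphocyte genes and the host gene pairs, were chosen after their values were seen. Small and long RNA libraries were matched by group, number and the batch code in the labels, which differs between all 12 matched pairs and so separates no sets of libraries. Nothing in the labels says whether libraries of a group came from separate mice. Some results are not reported here. Sequences of 7 called miRNAs are not shown because no match was found or used.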

Additional observations from a re-analysis of the deposited data

Results flagged for a closer look

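Within each group of 4 libraries, the highest or lowest library was compared with the gap to its nearest neighbour, and 27 libraries and quantities of 48 groups stood out (Dixon's ratio above its 95% critical value). Chance flags about 1 in 20 groups. Of the 27, 21 concern the 2 libraries that were chosen for standing apart, so they are descriptions, and the hepatocyte list includes miR-122-5p, on which they were chosen. The list sums are on CPM of the total only, and under other scalings several change place. With TMM factors the adipocyte-linked list was below the 10 in both libraries. The neural list overlapped the 10 under each other scaling, while the hepatocyte list stayed below the 10 under each.

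In control 2 the summed CPM stood out at 12517 for the hepatocyte list (lowest of its group), and as the highest of its group at 157350 for the endothelial list, 24273 for the HOX cluster list, 205184 for the miR-99, let-7 and miR-125 clusters and 59120 for the adipocyte-linked list. The other values that stood out there were 10099 for the brown fat-linked list, 2193 for the red blood cell list, 2266 for the Dlk1-Dio3 cluster list and 834 for the neural list.

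In HFD plus HQHF 3 the hepatocyte list stood out as the lowest at 17871 CPM. The highest values of that group were 319194 for the endothelial list, 6600 for the HOX cluster list, 82291 for the miR-99, let-7 and miR-125 clusters, 42164 for the stromal and smooth muscle list, 63488 for the adipocyte-linked list and 25864 for the brown fat-linked list. Further ones were 658 for the muscle list, 12848 for the immune cell list, 1117 for the red blood cell list, 1511 for the Dlk1-Dio3 cluster list and 1030 for the neural list.

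The other 6 lie in libraries labelled liver that kept miR-122-5p. HFD 3 was the highest of its group at 4533 CPM for the HOX cluster list, 4815 CPM for the Dlk1-Dio3 cluster list and 294 CPM for the pancreas list, of which miR-375-3p gave 292 CPM. Control 1 was the highest of its group for the pancreas list, at 192 CPM, with the pancreatic lipase gene Pnlip at 593 CPM in its long RNA. HFD 1 was the highest of its group for total counts, at 12813806, and for the muscle list, at 529 CPM.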

How the results depend on the processing

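Of the 12 miRNAs lower in both libraries, all passed under each scaling, and the count ran from 12 to 16 when single libraries were left out. The count of miRNAs higher in both was 6, and it was 26 at 2-fold, 3 at 8-fold and 68 against the other libraries of the own group only. It ran from 6 to 32 when 1 library was left out: 23 without HFD 3, 22 without control 2 and 32 without HFD plus HQHF 3. The 27 miRNAs higher in control 2 became 88 at 2-fold, 10 at 8-fold, 50 with a minimum of 1 CPM and 11 with a minimum of 100 CPM. The 26 higher in HFD plus HQHF 3 became 60, 14, 43 and 12. The 1 arm ratio became 0 with at least 50 counts an arm and 19 at any distance, and it ran from 1 to 11 when single libraries were left out: 2 without control 4, 2 without HFD 3 and 11 without HFD plus HQHF 3. For 38 single gaps and folds, 324 of 330 recomputed values kept their direction and at least 4-fold, and the other 6, miR-204-5p and miR-193a-5p under 3 scalings, kept their direction. No paired analysis was possible because no result comes from a test. Counting error is known from the depth, but the spread between libraries like these 2 is not.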

Other observations

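Counts of a pair of miRNAs in HFD plus HQHF 3 were identical where other libraries differed: let-7a-5p and let-7c-5p, which differ by A19G, both had 391833 counts. In control 2 they had 772901 and 1162980 counts, and in each of the other 10 libraries let-7a-5p had more counts than let-7c-5p. How the counts came to be equal was not tested. The entries miR-486a-5p and miR-486b-5p carried the same level, at 762 CPM in control 2 and at 159 CPM in HFD plus HQHF 3, and so did miR-299a-5p and miR-299b-5p, at 63.4 and 28.1 CPM, so each of these pairs is 1 measurement counted as 2 among the miRNAs that passed.

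The gene Elovl3, which elongates fatty acids in brown fat and in male mouse liver, was at 0 CPM in control 2, 77.2 CPM in HFD plus HQHF 3 and 1.51 to 541 CPM in the 10. Slit3, the host of miR-218, was at 135 and 42.2 CPM against 0.0490 to 9.28 CPM, and miR-218-5p was at 578 and 333 CPM against 6.18 to 559 CPM.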
